A study of Mus musculus with 18 samples.

Results

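The transcript response of 3T3-L1 adipocytes to GQ16 was set against their response to indomethacin, over all genes that could be measured. 3T3-L1 is a mouse preadipocyte line that turns into fat cells in culture. The members were the 3 arrays of cells given 10 µM GQ16 and the 3 arrays of cells given 10 µM indomethacin, chosen by their sample titles, out of 18 arrays in the series. Cells had been differentiated for 7 days and were exposed to the compounds for 24 hours, so concentration and time were the same in both groups. The 3 arrays of the vehicle, DMSO, are given beside them. The other groups, also of 3 arrays each, had received rosiglitazone at 100 nM, sodium diclofenac at 25 µM or ibuprofen at 75 µM, and all 6 groups entered the fit. All cells were of the 1 line, with no genetic change named in the labels, and it is not stated whether replicates were separate cultures. The p-values thus reflect the scatter of these arrays, which may be technical.

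PPARγ is the nuclear receptor that drives fat cell differentiation. With its partner RXR it binds DNA at the genes of lipid uptake, storage and oxidation, and its ligands raise the transcription of those genes. Indomethacin is a non-steroidal anti-inflammatory drug that inhibits the cyclooxygenases Ptgs1 and Ptgs2 and is also known as a PPARγ ligand that promotes differentiation of preadipocytes. GQ16 is a compound described as a partial agonist of PPARγ.

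Values are the authors' normalized log2 intensities, 1 per probe and array, in which a difference of 1 is a doubling. Of 45281 probes on each array, 42.1% lay above background, and 10957 genes were tested. Genes counted as called (higher or lower) had a Benjamini-Hochberg adjusted p under 0.05 in a limma fit. GQ16 replicates deviated from their group mean by 0.179, 0.193 and 0.183 (root mean square over genes, log2 scale), and indomethacin replicates by 0.100, 0.102 and 0.0923. Arrays 2 and 3 of GQ16 shared slide 3 with arrays 1 and 2 of indomethacin, so slide 3 allowed a comparison of 2 arrays against 2. The slide numbers are not part of the treatment labels or sample titles, so results by slide hold only if those numbers are right. Outside these groups the deviation was highest for rosiglitazone replicates 1 (0.286) and 2 (0.229) and DMSO replicate 3 (0.207), and all of these entered the estimate of the spread. A fit without rosiglitazone replicate 1 and DMSO replicate 3 is given as an alternative. That pair was chosen with earlier results of these data known, and the deviations alone do not single it out. Adipocyte markers were high, with 21 of 23 that had a probe above background on all 3 arrays of each group, and their summed intensity was 73808 to 78908 with GQ16, 68071 to 71231 with indomethacin and 73061 to 77876 with DMSO. Of 11 macrophage markers, 8 were below background on every array of the 3 groups, among them Adgre1, Ptprc and Lyz2. The 3 macrophage, 2 endothelial and 4 muscle markers that could be tested gave 0 calls with limma between GQ16 and indomethacin (1 at an unadjusted p under 0.05), and Pecam1, Vwf, Myod1 and Ckm were below background in each group.

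GQ16 and indomethacin differed in 1282 genes, 11.7% of those tested. Of these, 834 (7.61%) were higher with GQ16 and 448 (4.09%) were lower. The difference was over 2-fold in 37 genes that were higher with GQ16 (0.338%) and 26 that were lower (0.237%). Genes in which the 3 GQ16 arrays and the 3 indomethacin arrays did not overlap numbered 3860 (35.2%), and 1253 of the 1282 called genes (97.7%) were among them. Against DMSO, GQ16 changed 157 genes (1.43%; 75 higher, 82 lower) and indomethacin changed 1121 (10.2%; 392 higher, 729 lower). These counts share the DMSO arrays.

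**Figure D1:**
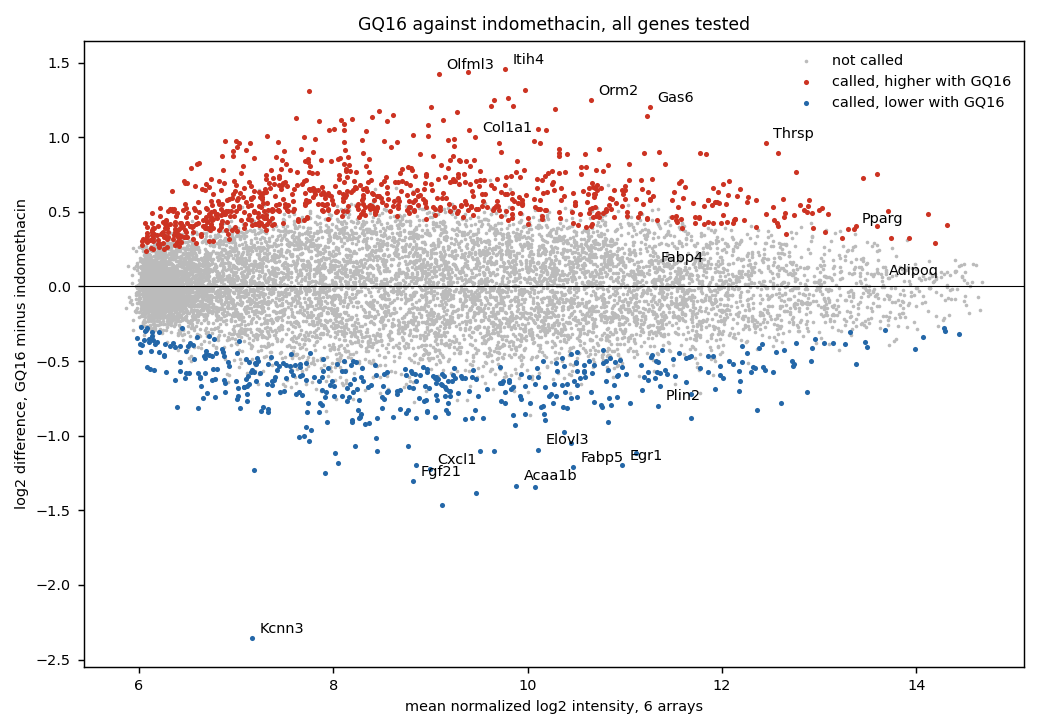
Each point is 1 of the 10957 genes, with the mean normalized log2 intensity of the 6 arrays on the horizontal axis and the log2 difference, GQ16 minus indomethacin, on the vertical axis. The 834 red points were called higher with GQ16 and the 448 blue points lower; Adipoq and Fabp4 lie among the grey points near 0.

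The balance of higher and lower calls depended on scaling and on the arrays used. It was 615 higher to 572 lower when the arrays were shifted to one median, and 737 to 493 with quantile normalization repeated on the tested genes. With the scaling unchanged it was 250 to 231 among the 481 genes called within slide 3. There 36 of the 91 called genes named here were not called. The total was 2237 without rosiglitazone replicate 1 and DMSO replicate 3, and it came to 690 without GQ16 replicate 2 and to 431, 790 and 647 without indomethacin replicate 1, 2 and 3. The GQ16 count against DMSO rested on few arrays: it was 11 or 15 without DMSO replicate 1 or 2, 256, 67 or 55 without GQ16 replicate 1, 2 or 3, 681 without rosiglitazone replicate 1 and DMSO replicate 3, and 37 with slide as a block.

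Called genes also differed in length. The median gene span was 14.5 kb for genes higher with GQ16, 32.9 kb for genes lower with GQ16 and 22.4 kb for genes not called. In the shortest of 4 equal classes of genes 10.6% were higher and 2.3% lower with GQ16, and in the longest class 4.64% and 5.59%. The median log2 difference, GQ16 minus indomethacin, went from 0.0665 in the shortest class to -0.0404 in the longest, and from 0.074 to -0.0357 within slide 3. The same medians against DMSO went from 0.0672 to -0.0403 for GQ16 and from 0.0101 to -0.000767 for indomethacin. The part of gene length, or of RNA quality that may follow it, in the calls was not tested.

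Of 28 measured PPARγ target genes, 8 were lower with GQ16 than with indomethacin (28.6%, against 4.09% of all genes tested), 0 were higher and 20 were not called. At an unadjusted limma p under 0.05, 13 were lower (11.1% of all genes were) and 0 higher (16.2%). The list's median log2 difference was -0.22, against 0.01 over all genes, and -0.20 within slide 3. The called members were Acaa1b, Fgf21, Fabp5, Elovl3, Plin2, Hcar2, Pdk4 and Angptl4. Against DMSO, 4 of the 28 were called higher with GQ16 (0.684% of all genes were; list median 0.14) and 7 with indomethacin (3.58%; list median 0.28). With slide as a block 6 were lower with GQ16 than with indomethacin, and leaving out any 1 of the 6 arrays gave 6 to 9 called members.

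Acaa1b, a thiolase that shortens fatty acids in the peroxisome, had log2 intensities of 8.99, 9.09 and 9.57 with GQ16, 10.54, 10.54 and 10.58 with indomethacin, and 7.89, 7.77 and 7.84 with DMSO. All GQ16 arrays thus lay between the DMSO arrays and the indomethacin arrays. The difference, GQ16 minus indomethacin, was -1.34 ± 0.16 (SE, n = 3 per group, adjusted p = 2.85e-05), and -1.21 within slide 3. The probe may also bind the transcript of the close relative Acaa1a. Rosiglitazone, a full PPARγ agonist given at the differing dose of 100 nM, had a mean of 11.80 ± 0.08 (SD, n = 3) for this gene.

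Fgf21 encodes a secreted hormone of fasting and fat metabolism. It measured 8.14, 8.25 and 8.11 with GQ16, 9.65, 9.40 and 9.37 with indomethacin and 7.46, 7.13 and 7.64 with DMSO. Again the 3 groups did not overlap, with GQ16 in the middle, and the difference was -1.31 ± 0.17 (adjusted p = 7.16e-05; -1.34 within slide 3). Elovl3, which lengthens fatty acids and marks brown and beige fat, showed the same order of groups. Its log2 intensities were 9.58, 9.59 and 9.50 with GQ16, 10.59, 10.62 and 10.75 with indomethacin and 8.67, 8.57 and 8.76 with DMSO. The difference was -1.09 ± 0.18 (adjusted p = 0.000394; -1.06 within slide 3). Hcar2, the receptor for nicotinic acid and ketone bodies that restrains lipolysis, was lower by a smaller amount. It read 10.45, 10.58 and 10.53 with GQ16, 11.01, 11.11 and 11.00 with indomethacin and 10.13, 9.85 and 10.09 with DMSO. These groups did not overlap either, and the difference was -0.52 ± 0.13 (adjusted p = 0.0104; 0.0944 within slide 3).

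A further pair of targets stood with GQ16 where they stood with DMSO. Plin2, a coat protein of lipid droplets, measured 10.71, 10.96 and 11.16 with GQ16, 11.95, 11.70 and 11.57 with indomethacin and 11.00, 11.20 and 10.46 with DMSO. The GQ16 arrays lay within the range of the DMSO arrays and below all indomethacin arrays, with a difference from indomethacin of -0.80 ± 0.17 (adjusted p = 0.0036; -0.76 within slide 3). The difference of GQ16 from DMSO was 0.06 (adjusted p = 0.9). Fabp5, a fatty acid carrier, measured 10.31, 9.71 and 9.56 with GQ16, 11.12, 11.01 and 11.10 with indomethacin and 9.57, 9.75 and 9.33 with DMSO. GQ16 replicate 1 was above the DMSO arrays, the other GQ16 arrays were among them, and the difference from indomethacin was -1.21 ± 0.24 (adjusted p = 0.0021). Its second probe differed by -0.40.

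**Figure D2:**
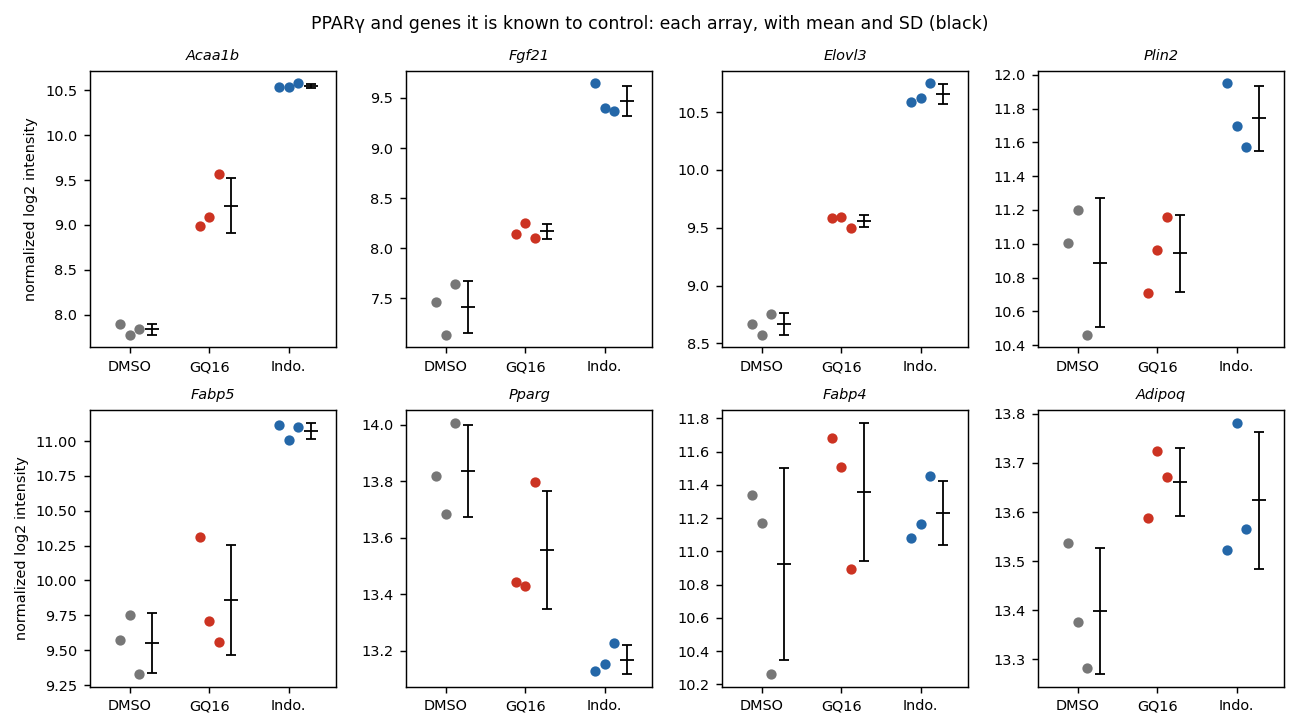
Normalized log2 intensity of 8 genes in each array (coloured points) with the group mean and SD (black) for DMSO, GQ16 and indomethacin, 3 arrays each; the vertical scale differs between panels and does not start at 0. Acaa1b, Fgf21 and Elovl3 show GQ16 between DMSO and indomethacin, and in Fabp4 and Adipoq the GQ16 and indomethacin arrays overlap.

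The calls of Angptl4 and Pdk4 were weak. Angptl4, an inhibitor of lipoprotein lipase, was 13.05, 13.34 and 13.47 with GQ16 and 13.73, 13.64 and 13.60 with indomethacin (difference -0.37 ± 0.12, adjusted p = 0.0404). Pdk4, the kinase that shuts down pyruvate dehydrogenase, was 10.42, 10.38 and 9.92 against 10.74, 10.69 and 10.81 (-0.51 ± 0.17, adjusted p = 0.0471). Neither was called with slide as a block (adjusted p = 0.0688 and 0.0633). Angptl4 was not called without GQ16 replicate 1 or 2 or any 1 indomethacin array (adjusted p up to 0.169), nor Pdk4 without GQ16 replicate 2 or 3 or any 1 indomethacin array (up to 0.205).

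Several classical markers of PPARγ activity did not separate the compounds. The fatty acid carrier Fabp4 measured 11.68, 11.51 and 10.89 with GQ16 and 11.08, 11.17 and 11.45 with indomethacin, which overlap. Its difference was 0.13, with a 95% confidence interval of -0.42 to 0.67. The adipokine Adipoq differed by 0.04 (interval -0.22 to 0.29), the fatty acid transporter Cd36 by -0.07 (-0.45 to 0.31), the lipid droplet protein Plin1 by 0.01 (-0.30 to 0.32) and lipoprotein lipase, Lpl, by 0.14 (-0.02 to 0.31). The probes of Plin1 and of Lpl differed in sign. The insulin-responsive glucose transporter Slc2a4 differed by 0.08 (-0.23 to 0.40), with changes against DMSO of -0.59 for GQ16 and -0.67 for indomethacin. In 23 of the 28 PPARγ targets the interval of the difference lay within 2-fold either way, as it did in 10396 of all 10957 genes. The 23 include the called members Hcar2, Angptl4 and Pdk4, so such an interval does not mark a lack of difference.

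Pparg itself had its brightest probe at 13.44, 13.43 and 13.80 with GQ16, 13.13, 13.15 and 13.23 with indomethacin and 13.82, 13.68 and 14.01 with DMSO. The GQ16 arrays were above the indomethacin arrays by 0.39 ± 0.12 (adjusted p = 0.0365), but the other probes of the gene, which are dimmer, differed by -0.50 and -0.40. The mean of the 3 probes differed by -0.17 (adjusted p = 0.563), so no direction holds for this gene. The call was also lost without GQ16 replicate 3 or any 1 indomethacin array (adjusted p up to 0.177) and within slide 3 (0.0857).

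**Figure D3:**
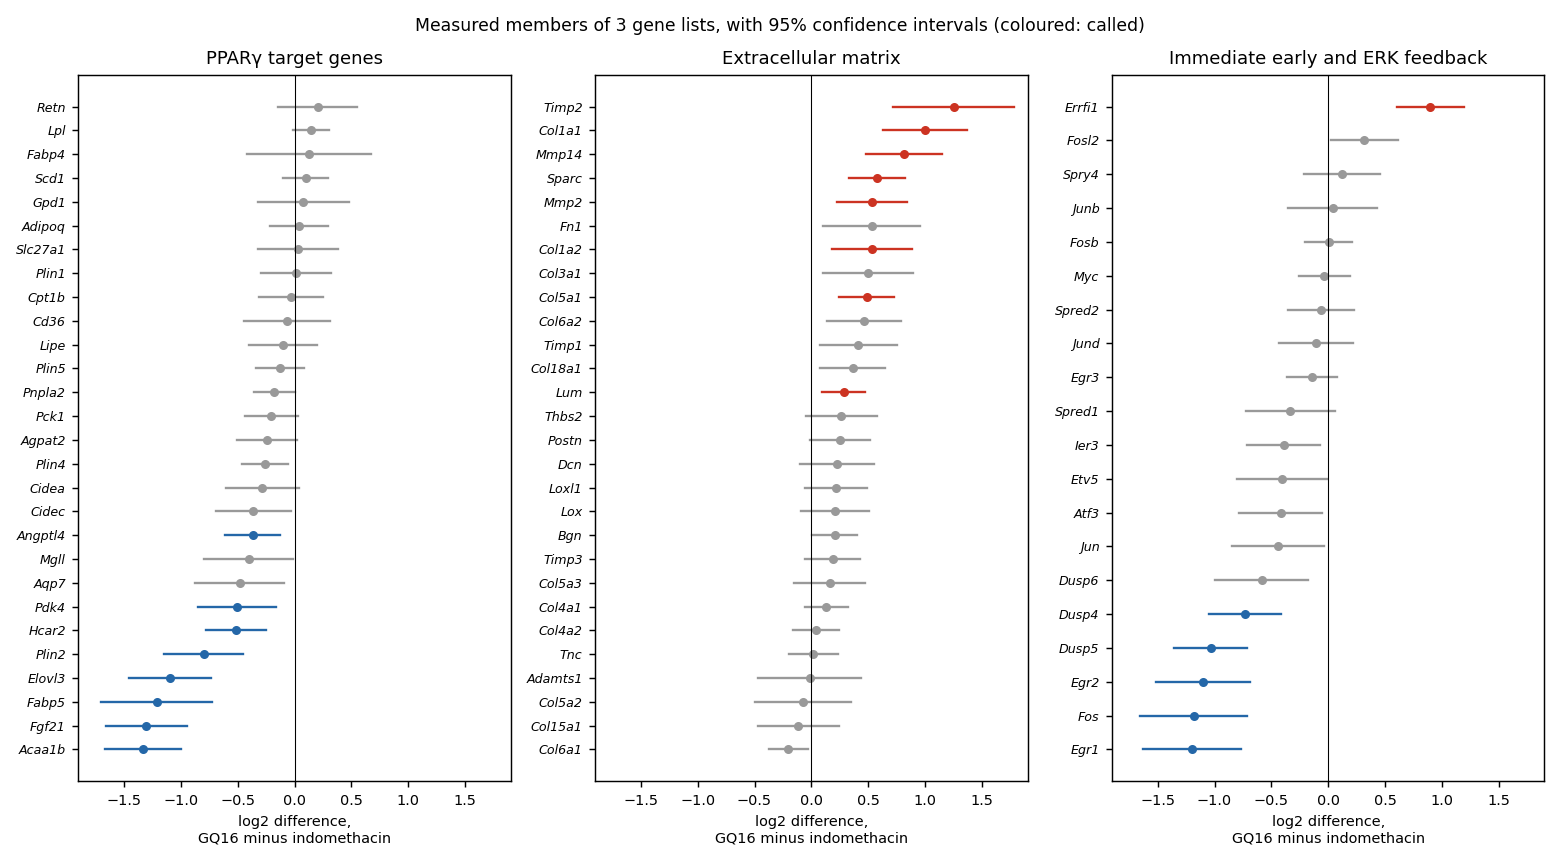
Log2 difference, GQ16 minus indomethacin (horizontal axis), with its 95% confidence interval for each measured member of the PPARγ target, extracellular matrix and immediate early lists; red members were called higher with GQ16, blue members lower and grey members not called. Called PPARγ targets all lie below 0, called matrix genes all above 0, and Errfi1 is the called immediate early list member above 0.

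Thermogenic genes moved both ways, with 3 higher and 3 lower with GQ16 among 10 measured. These were 30% each, against 7.61% and 4.09% of all genes, and the median was 0.04. Besides Elovl3 and Fgf21, the lower member was Ppargc1a, a coactivator of mitochondrial genes. It measured 9.12, 8.55 and 8.71 with GQ16, 9.69, 9.59 and 9.44 with indomethacin and 8.68, 8.44 and 9.05 with DMSO. All GQ16 arrays were below the indomethacin arrays (-0.78 ± 0.17, adjusted p = 0.00525). The nucleoside transporter Slc29a1 was higher with GQ16 (1.01 ± 0.18, adjusted p = 0.000798), as were the muscle-type cytochrome oxidase subunits Cox7a1 and Cox8b, which lie outside the rule for named genes and were picked after their values were seen.

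Of 22 genes of fatty acid and triglyceride synthesis 4 were higher with GQ16 (18.2%, against 7.61% of all genes). Only 1 was lower (4.55%, against 4.09% of all genes), and the median was 0.17 (0.26 within slide 3). Thrsp, a nuclear protein that promotes lipogenesis, measured 12.93, 12.83 and 13.04 with GQ16, 11.80, 12.15 and 11.97 with indomethacin and 13.04, 12.96 and 13.22 with DMSO. GQ16 overlapped DMSO and lay above indomethacin on every array (0.96 ± 0.13, adjusted p = 8.41e-05). The desaturase Fads2 (0.63), the acyltransferase Dgat1 (0.45) and, lower with GQ16, the acyltransferase Gpam (-0.73) were also called, along with Dgat2. With slide as a block Dgat1 was not called (adjusted p = 0.051) and 2 list members were higher. Without GQ16 replicate 2 or 3, or any 1 indomethacin array, 1 list member was called.

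In fatty acid oxidation 1 of 23 genes was higher with GQ16 (4.35%, against 7.61% of all genes). In the same list 4 were lower (17.4%, against 4.09%), with a median of -0.12. The carnitine carrier Slc25a20 differed by -0.60 ± 0.16 (adjusted p = 0.0166; 0.0845 without indomethacin replicate 3) and the trifunctional protein subunit Hadhb by -0.52 (adjusted p = 0.0436, not called with slide as a block at 0.081). The short-chain dehydrogenase Acads was higher (0.45 ± 0.11, adjusted p = 0.0118; 0.0754 without indomethacin replicate 1). The list had 2 or 3 calls without GQ16 replicate 2 or 3 or indomethacin replicate 1 or 3. In oxidative phosphorylation 3 of 30 were lower (10%, against 4.09% of all genes), namely Ndufb5, Sdhd and Uqcrc2, and the median was -0.03. None of the 3 was called without GQ16 replicate 2 or indomethacin replicate 1, and 1 was called without GQ16 replicate 3 or indomethacin replicate 2 or 3. Lipolysis had 1 lower of 13 (7.69%, against 4.09% of all genes), Hcar2, or 2 without GQ16 replicate 3, and a median of -0.18. Cholesterol synthesis and uptake had 1 lower of 14 (7.14%, against 4.09%), the sterol demethylase Cyp51 (-0.42 ± 0.11, adjusted p = 0.0121). The Cyp51 call was lost without either indomethacin replicate 1 or GQ16 replicate 2, with the adjusted p at 0.096 or less.

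Several acute-phase genes were higher with GQ16 than with indomethacin. Of 18 measured acute-phase and inflammatory genes 6 were higher (33.3%, against 7.61% of all genes), 2 were lower (11.1%, against 4.09%) and the median was 0.26. Orm2, a plasma orosomucoid of the acute phase, measured 11.07, 11.25 and 11.50 with GQ16, 10.08, 10.02 and 9.98 with indomethacin and 11.88, 12.11 and 11.94 with DMSO. GQ16 again lay between DMSO and indomethacin without overlap, here below DMSO. The difference from indomethacin was 1.25 ± 0.14 (adjusted p = 1.47e-05; 1.33 within slide 3). Orm1, whose transcript may share probe signal with that of Orm2, was 13.92, 13.90 and 14.07 against 13.24, 13.17 and 13.23 (0.75 ± 0.10, adjusted p = 6.97e-05).

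The iron-binding protein Lcn2 measured 14.50, 14.33 and 14.26 with GQ16, 13.82, 13.93 and 13.88 with indomethacin and 14.33, 14.39 and 14.35 with DMSO. It was higher with GQ16 than with indomethacin on every array (0.49 ± 0.10, adjusted p = 0.00296; 0.0581 within slide 3). The protease inhibitor Serpina3n was higher as well (0.66 ± 0.17, adjusted p = 0.0118), though not without GQ16 replicate 3 or indomethacin replicate 1 or 3 (adjusted p up to 0.0609). Cxcl1, a chemokine that attracts neutrophils, went the opposite way at 8.44, 8.31 and 8.40 with GQ16, 9.96, 9.38 and 9.48 with indomethacin and 7.95, 8.07 and 8.44 with DMSO. GQ16 replicate 1 lay just above the highest DMSO array, the other GQ16 arrays lay among the DMSO arrays, and all 3 lay below the indomethacin arrays (-1.22 ± 0.19, adjusted p = 0.000265). Hp and Vcam1 (higher) and Tnfaip3 (lower) completed the 8 calls, and 4 members were called without GQ16 replicate 3 or indomethacin replicate 1 or 3. The interferon list had 2 higher of 19 (10.5%, against 7.61% of all genes) and a median of 0.16. Of its members 1 was called on leaving out any 1 array other than GQ16 replicate 1. Its leading gene, the transcription factor Irf7, was below background on all 3 indomethacin arrays and at least 1.34-fold higher with GQ16 (adjusted p = 0.00503).

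Of 28 measured extracellular matrix genes, 8 were higher with GQ16 (28.6%, against 7.61% of all genes), 0 were lower and 20 were not called, or 14 and 1 at an unadjusted limma p under 0.05 (16.2% and 11.1% of all genes), and the median was 0.26 (also 0.26 within slide 3). Against DMSO, 1 fell with GQ16 (0.748% of all genes did; list median -0.13), and 9 were lower at an unadjusted p under 0.05 (8.1% of all genes). In the same list 16 fell with indomethacin (6.65%; median -0.50). Col1a1, the main chain of type I collagen, measured 9.88, 9.88 and 10.12 with GQ16, 8.87, 9.01 and 9.01 with indomethacin and 10.03, 10.30 and 9.76 with DMSO. GQ16 lay within the DMSO range and above every indomethacin array (1.00 ± 0.18, adjusted p = 0.00099; 1.07 within slide 3).

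The metalloproteinase inhibitor Timp2 measured 10.65, 9.73 and 10.47 with GQ16 and 8.89, 9.11 and 9.09 with indomethacin (1.25 ± 0.26, adjusted p = 0.00316). The membrane-bound matrix protease Mmp14 (0.82 ± 0.16) and the collagen-binding glycoprotein Sparc (0.58 ± 0.12) were higher too (adjusted p = 0.00222 and 0.00332). Within slide 3 both missed the threshold (0.0527 and 0.0509), and the 3 probes of Sparc ranged from 0.04 to 0.87. The other called members were Col1a2, Col5a1, Mmp2 and Lum. The count was 4 without indomethacin replicate 1, 5 without indomethacin replicate 3 and 13 without rosiglitazone replicate 1 and DMSO replicate 3.

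Among 24 preadipocyte and fibroblast markers 5 were higher with GQ16 (20.8%, against 7.61% of all genes) and 3 lower (12.5%, against 4.09%), with a median of 0.15. The summed intensity of the 26 markers with a probe was 24000 to 31774 with GQ16, 23005 to 24912 with indomethacin and 26982 to 30950 with DMSO, and the part of any difference in the share of undifferentiated cells was not tested. In bulk cells, fewer cells of a kind and less RNA per cell cannot be told apart. Thy1, a surface protein of fibroblasts, measured 10.00, 9.92 and 9.82 with GQ16, 8.67, 8.97 and 8.97 with indomethacin and 9.82, 9.76 and 9.53 with DMSO (1.05 ± 0.18, adjusted p = 0.000754). Gas6, a ligand of the TAM receptor kinases, measured 12.12, 11.44 and 12.03 with GQ16 and 10.37, 10.85 and 10.76 with indomethacin (1.20 ± 0.22, adjusted p = 0.00117).

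The activin antagonist Fst (0.86 ± 0.21) and the matrix protein Fbln1 (0.66 ± 0.15) were higher as well (adjusted p = 0.00993 and 0.00645), Fst not without indomethacin replicate 1 (0.0703). The lower members were the transcription factors Twist2 and Sox9 and the activin subunit Inhba, and the fifth higher member was Vim. The list had 4 calls without GQ16 replicate 2 and 3 without indomethacin replicate 1. Genes outside the lists with large rises included Olfml3 (1.42 ± 0.20), Mxra8 (1.32 ± 0.19) and the procollagen processing enhancer Pcolce (1.21 ± 0.21). Mxra8, for one, measured 10.74, 10.50 and 10.66 with GQ16, 9.05, 9.48 and 9.41 with indomethacin and 10.95, 10.91 and 10.89 with DMSO. GQ16 lay under DMSO and above indomethacin without overlap, but was not called against DMSO (-0.28, adjusted p = 0.457).

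Immediate early genes switch on within minutes of growth factor signalling through ERK. Of 20 measured genes in the immediate early and ERK feedback list, 5 were lower with GQ16 than with indomethacin (25.0%, against 4.09% of all genes). The list also had 1 higher member (5%, against 7.61% of all genes) and 14 that were not called. The median was -0.36, or -0.33 within slide 3, and it ranged from -0.48 without GQ16 replicate 2 to -0.144 without a filter on low values. Against DMSO 0 members were called with GQ16 by limma, where few genes were called at all (0.684% higher, 0.748% lower). At an unadjusted limma p under 0.05, 2 were lower (8.1% of all genes were), and the list median was 0.09. With indomethacin 9 were called higher (3.58% of all genes were) and 1 lower (6.65%), with a median of 0.44. The list had 6 or 7 calls whichever of the 6 arrays was left out and 10 without rosiglitazone replicate 1 and DMSO replicate 3. The transcription factor Fos measured 7.64, 7.00 and 7.74 with GQ16, 8.88, 8.40 and 8.64 with indomethacin and 7.36, 7.40 and 7.35 with DMSO. The GQ16 arrays lay on both sides of DMSO and below all indomethacin arrays (-1.18 ± 0.23, adjusted p = 0.00188).

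Egr1, a zinc finger transcription factor, measured 10.15, 10.27 and 10.69 with GQ16, 11.51, 11.63 and 11.57 with indomethacin and 11.05, 10.84 and 10.24 with DMSO (-1.20 ± 0.21, adjusted p = 0.000807). DMSO replicate 3 lay among the GQ16 arrays. Its relative Egr2 measured 9.03, 8.73 and 9.54 with GQ16, 10.35, 9.95 and 10.31 with indomethacin and 8.89, 9.16 and 8.80 with DMSO (-1.10 ± 0.20, adjusted p = 0.00112; 0.066 within slide 3). Dusp5, a nuclear phosphatase that inactivates ERK, measured 7.28, 7.41 and 7.01 with GQ16, 8.43, 8.16 and 8.23 with indomethacin and 7.10, 7.21 and 7.14 with DMSO. For Dusp5 too GQ16 stood with DMSO and indomethacin apart (-1.04 ± 0.16, adjusted p = 0.000224), and Dusp4, another ERK phosphatase, was the fifth lower member. Errfi1, a feedback inhibitor of the EGF receptor, was the higher one at 13.06, 12.78 and 13.25 with GQ16, 12.03, 12.20 and 12.17 with indomethacin and 13.41, 13.61 and 13.67 with DMSO. GQ16 lay between the other groups (0.90 ± 0.14 from indomethacin, adjusted p = 0.000343), but was not called against DMSO (-0.53, adjusted p = 0.0567).

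**Figure D4:**
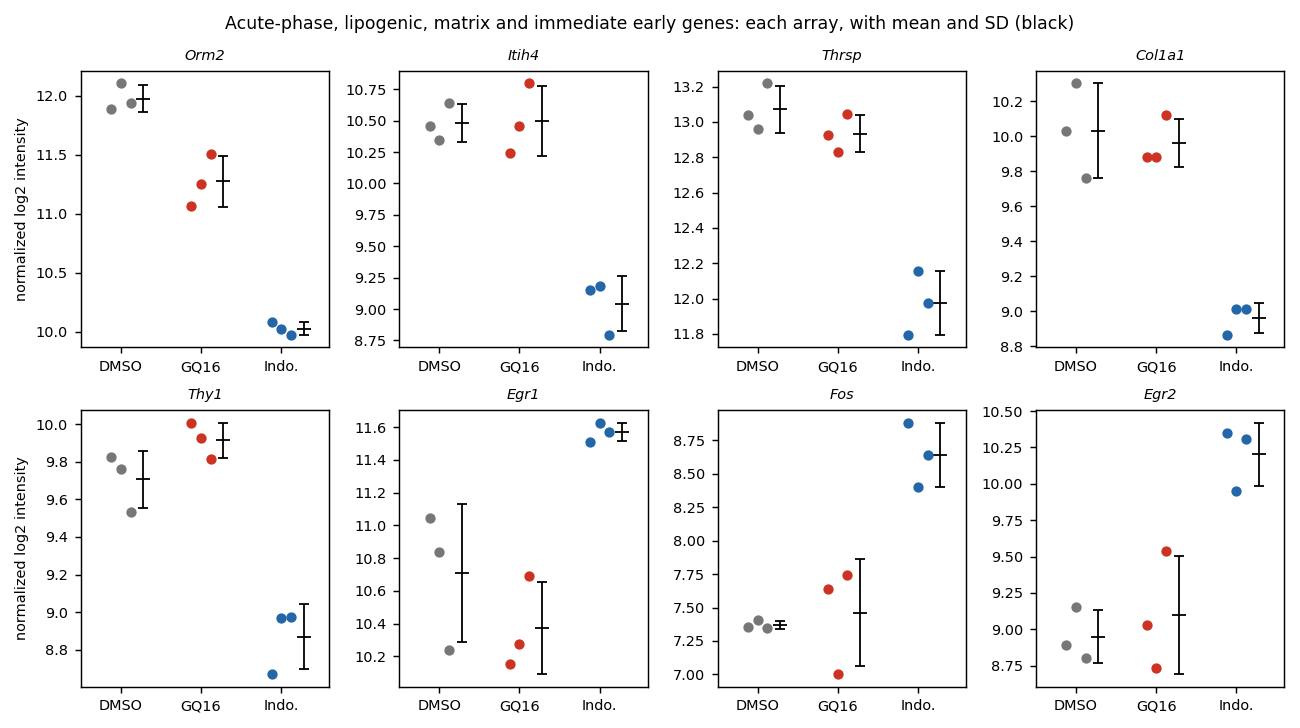
Normalized log2 intensity of 8 genes in each array (coloured points) with the group mean and SD (black) for DMSO, GQ16 and indomethacin, 3 arrays each; the vertical scale differs between panels and does not start at 0. Orm2, Itih4, Thrsp, Col1a1 and Thy1 are lower with indomethacin than with GQ16, and Egr1, Fos and Egr2 are higher.

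Promoter sequence is shown for Fos, Egr2 and Dusp5, members that were lower with GQ16, and for Fgf21, as the stretch of 250 bases before the RefSeq start site (build GRCm38.p6, 5′ to 3′ on the gene's strand). Egr2 (chr10:67537316-67537565, plus strand, 1 of 5 start sites) and Dusp5 (chr19:53528895-53529144, plus strand) hold CArG boxes, the element bound by serum response factor, in capitals. Fos (chr12:85473640-85473889, plus strand) and Fgf21 (chr7:45615491-45615740, minus strand) hold TATAAA, in capitals.
Egr2 promoter: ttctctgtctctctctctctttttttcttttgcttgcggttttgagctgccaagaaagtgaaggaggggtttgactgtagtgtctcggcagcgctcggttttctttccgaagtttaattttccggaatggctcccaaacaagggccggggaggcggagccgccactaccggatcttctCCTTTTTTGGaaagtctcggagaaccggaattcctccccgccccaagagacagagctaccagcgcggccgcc
Dusp5 promoter: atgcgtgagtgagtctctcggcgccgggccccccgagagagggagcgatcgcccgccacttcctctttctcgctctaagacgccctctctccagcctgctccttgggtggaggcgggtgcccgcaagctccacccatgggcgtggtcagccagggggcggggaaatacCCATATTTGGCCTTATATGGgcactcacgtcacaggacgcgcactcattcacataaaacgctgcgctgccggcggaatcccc
Fos promoter: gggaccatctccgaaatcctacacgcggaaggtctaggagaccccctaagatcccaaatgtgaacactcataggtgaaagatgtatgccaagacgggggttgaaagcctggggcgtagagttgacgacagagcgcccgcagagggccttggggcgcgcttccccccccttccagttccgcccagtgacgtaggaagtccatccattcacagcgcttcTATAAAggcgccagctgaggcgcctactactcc
Fgf21 promoter: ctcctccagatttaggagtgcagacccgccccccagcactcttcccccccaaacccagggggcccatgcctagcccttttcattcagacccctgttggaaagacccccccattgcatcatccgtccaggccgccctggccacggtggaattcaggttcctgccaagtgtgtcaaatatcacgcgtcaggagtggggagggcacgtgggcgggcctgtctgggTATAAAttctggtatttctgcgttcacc
Of the 20 measured members of the immediate early list 15 had a promoter in the table. Of these 2, Egr2 and Dusp5, held a CArG box in this stretch on either strand. The share was 1.47% of all 32851 promoter windows. A list gene counted if any of its windows matched (Egr2 has 5), while the shares over all are per window, so the measures are unlike. The Egr2 box begins 72 bases before the start site and the Dusp5 boxes 82 and 72 bases before it. TATAAA on either strand was in 12.4% of all promoter windows. By gene it was in 2 of the 15 immediate early list members (Fos and Errfi1, 13.3%, the latter higher with GQ16) and in 1 of 18 PPARγ targets (Fgf21, 5.56%). Of the 6 called list members, Egr2, Dusp5, Fos and Errfi1 were searched, and Egr1 and Dusp4 are named only. A direct repeat of AGGTCA with 1 base between, the form of element that PPARγ and RXR bind, was on either strand in 0.0335% of all promoter windows. It was in 0 of the 18 PPARγ targets with a promoter in the table. A match or its lack describes these letters in this window only.

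Among single genes the widest difference was in Kcnn3, a calcium-activated potassium channel of small conductance. It measured 6.17, 5.81 and 5.98 with GQ16, 8.32, 8.28 and 8.43 with indomethacin and 8.39, 8.40 and 7.40 with DMSO. All GQ16 arrays were below the background level of 6.18, so the gene was at least 4.48-fold lower with GQ16 (adjusted p = 0.00459), and indomethacin overlapped DMSO. Rosiglitazone arrays varied widely for this probe (SD 1.71). Itih4, a liver-type protease inhibitor heavy chain of the acute-phase response, had the largest rise. It measured 10.24, 10.46 and 10.80 with GQ16, 9.15, 9.19 and 8.79 with indomethacin and 10.45, 10.35 and 10.64 with DMSO. GQ16 overlapped DMSO and was above indomethacin on every array (1.46 ± 0.16, adjusted p = 1.47e-05), and its 3 probes ranged from 0.75 to 1.46.

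Other large falls with GQ16 relative to indomethacin were in the glycerophosphodiesterase Gpcpd1 (-1.35 ± 0.22), the syntenin Sdcbp2 (-1.38 ± 0.19), the keratin Krt23 (-1.20 ± 0.17) and the deadenylase-like circadian protein Noct (-1.11 ± 0.18). Sdcbp2 measured 8.91, 8.86 and 8.56 with GQ16, 10.22, 10.02 and 10.23 with indomethacin and 8.81, 8.79 and 8.35 with DMSO, so GQ16 stood with DMSO. Krt23 measured 8.50, 8.22 and 8.03 with GQ16, 9.48, 9.46 and 9.41 with indomethacin and 7.38, 7.26 and 7.80 with DMSO, so GQ16 stood between them. The mitochondrial protease Yme1l1 measured 8.96, 7.89 and 8.32 with GQ16, 10.00, 9.93 and 9.62 with indomethacin and 8.89, 9.00 and 9.35 with DMSO (-1.46 ± 0.23, adjusted p = 0.000386). Its 3 probes ranged from -1.46 to -0.20, and those of Gpcpd1 from -1.92 to -0.07.

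Of 18 insulin signalling genes 2 were higher (11.1%, against 7.61% of all genes) and 1 was lower (5.56%, against 4.09%), with a median of 0.03, whose sign changed under 1 other setting. Pik3ip1, an inhibitor of PI3 kinase, measured 7.32, 7.37 and 7.42 with GQ16, 6.22, 6.44 and 6.52 with indomethacin and 7.84, 7.77 and 7.78 with DMSO (0.98 ± 0.11, adjusted p = 1.47e-05). GQ16 lay between the other groups without overlap. The catalytic subunit Pik3ca was lower with GQ16 (-0.76 ± 0.14, adjusted p = 0.00134), at 6.70, 6.73 and 6.74 against 7.53, 7.37 and 7.56. Igf1 was higher (0.59), but its second probe differed by -0.03.

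In the list of genes linked to phosphorylation of PPARγ by the kinase Cdk5, 2 of 12 were higher (16.7%, against 7.61% of all genes). The median was -0.12. The cytochrome P450 Cyp2f2 measured 11.07, 10.49 and 11.05 with GQ16, 9.72, 9.63 and 9.71 with indomethacin and 11.35, 11.24 and 11.34 with DMSO (1.19 ± 0.16, adjusted p = 9.64e-05). The chemoattractant adipokine Rarres2 was higher by its brightest probe (0.51 ± 0.11, adjusted p = 0.0036), while its probes ranged from -0.26 to 0.51. The 10 measured adipokines had a median of 0.31, which ranged from 0.0905 without a filter on low values to 0.458 without GQ16 replicate 3. Of them 4 were higher (40%, against 7.61% of all genes) and 1 was lower (10%, against 4.09%). They were the angiotensin precursor Agt (0.58), the lipoprotein lipase regulator Angptl8 (0.66), Nnmt (0.72) and Rarres2, and on the lower side the growth factor Nrg4 (-0.57). The count fell to 1 without indomethacin replicate 3 and to 3 without GQ16 replicate 1 or 3 or indomethacin replicate 1 or 2.

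Of the 22 adipocyte identity genes, 3 were higher with GQ16 (13.6%, against 7.61% of all genes) and 1 was lower (4.55%, against 4.09%), with a median of 0.10. They were Thrsp, Pparg by its brightest probe, the signalling factor Stat5a (0.72 ± 0.16, adjusted p = 0.00634; 0.058 without indomethacin replicate 1) and, lower, Cebpb (-0.31). Cebpb was not called with slide as a block (adjusted p = 0.0587) or on leaving out any 1 of the 6 arrays (up to 0.14), and the list's count came to 1 or 2 without GQ16 replicate 3 or any 1 indomethacin array. In the prostaglandin pathway, the pathway indomethacin inhibits, 1 of 11 was higher and 1 lower (9.09% each, against 7.61% and 4.09% of all genes). The median was -0.01, and its sign changed under 10 other settings. Ptgis, the prostacyclin synthase, measured 10.93, 10.79 and 10.59 with GQ16, 9.76, 9.95 and 9.92 with indomethacin and 10.83, 10.94 and 10.98 with DMSO (0.89 ± 0.14, adjusted p = 0.00034). The reductase Ptgr2 was lower with GQ16 (-0.60 ± 0.18, adjusted p = 0.0309), a call kept only when GQ16 replicate 3 was the array left out. No probe carried the symbol Ptgs1, and the probes of Ptgs2 exceeded background on 0 arrays.

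Of 15 genes in the endoplasmic reticulum chaperone list 4 were lower (26.7%, against 4.09% of all genes). The median was -0.15, between -0.236 and -0.00266 under the other settings. By sign, 9 of the 15 lay below 0 and 6 above. At an unadjusted limma p under 0.05, 4 were lower (11.1% of all genes were) and 2 higher (16.2%). The called genes were Dnajb9 (-0.97 ± 0.29), Hsp90b1 (-0.70), Sel1l (-0.63) and the regulator Xbp1 (-0.38). Hsp90b1 was not called with slide as a block (-0.52, adjusted p = 0.0711). The count was 0 without GQ16 replicate 3, 1 without GQ16 replicate 2 or indomethacin replicate 1 or 2, and 2 without indomethacin replicate 3, and the 4 probes of Sel1l differed in sign. Amino acid stress genes had 1 higher (4.35%, against 7.61% of all genes) and 3 lower (13%, against 4.09%) of 23, with a median of -0.09. The cystine transporter Slc7a11 measured 7.83, 7.69 and 7.41 with GQ16, 8.49, 8.43 and 8.21 with indomethacin and 7.44, 7.39 and 7.49 with DMSO (-0.73 ± 0.14, adjusted p = 0.002). The mTOR inhibitor Ddit4 was higher (0.49 ± 0.10, adjusted p = 0.00412).

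Glutathione and NRF2 genes had 2 higher (8%, against 7.61% of all genes) and 3 lower (12%, against 4.09%) of 25. The median was 0.10, with 2 or 3 calls without indomethacin replicate 1 or 2. Gstm2, a glutathione transferase, was the clearest at 13.17, 12.92 and 13.35 with GQ16 against 12.38, 12.32 and 12.43 with indomethacin (0.77 ± 0.12, adjusted p = 0.000259), and closely related transferases may share its probes. Of 17 glucocorticoid targets 3 were higher (17.6%, against 7.61% of all genes), namely Errfi1, Lcn2 and Hif3a, whose probes differed in sign. Another 2, Angptl4 and Dusp1, were lower (11.8%, against 4.09% of all genes). The median was 0.16, with 3 calls without GQ16 replicate 2 or indomethacin replicate 1 or 3. Glycolysis and hypoxia genes had 2 lower of 19 (10.5%, against 4.09% of all genes) and a median of 0.05. The angiogenic factor Vegfa measured 11.08, 11.21 and 11.44 with GQ16, 12.17, 12.02 and 12.19 with indomethacin and 11.75, 11.66 and 11.44 with DMSO (-0.88 ± 0.16, adjusted p = 0.00129), although its second probe differed by -0.00268. Egln3, the other, was lower (-0.57), was not called when any 1 array other than GQ16 replicate 1 was left out, and had probes that differed in sign.

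The remaining lists had at most 1 call each, which was lost on leaving out some single arrays. Higher calls made up 5% of the cell cycle and 6.67% of the circadian clock genes, against 7.61% of all genes. The lower call made up 7.69% of the ribosomal protein genes, against 4.09% of all genes. With slide as a block Cdkn2c and Rpl27 were not called (adjusted p = 0.0517 and 0.0543). Cell cycle genes had 1 higher of 20, Cdkn2c, with probes that differed in sign (0 calls without GQ16 replicate 3 or any 1 indomethacin array, 2 without GQ16 replicate 1 or 2; median 0.12). Circadian clock genes had 1 higher of 15, Npas2, and 0 calls without GQ16 replicate 1 or indomethacin replicate 1 or 3 (median -0.07). Npas2 was below background on all 3 indomethacin arrays and at least 1.13-fold higher with GQ16. Ribosomal protein genes had 1 lower of 13, Rpl27 (0 without GQ16 replicate 2 or 3 or indomethacin replicate 1 or 3; median -0.01).

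**Figure D5:**
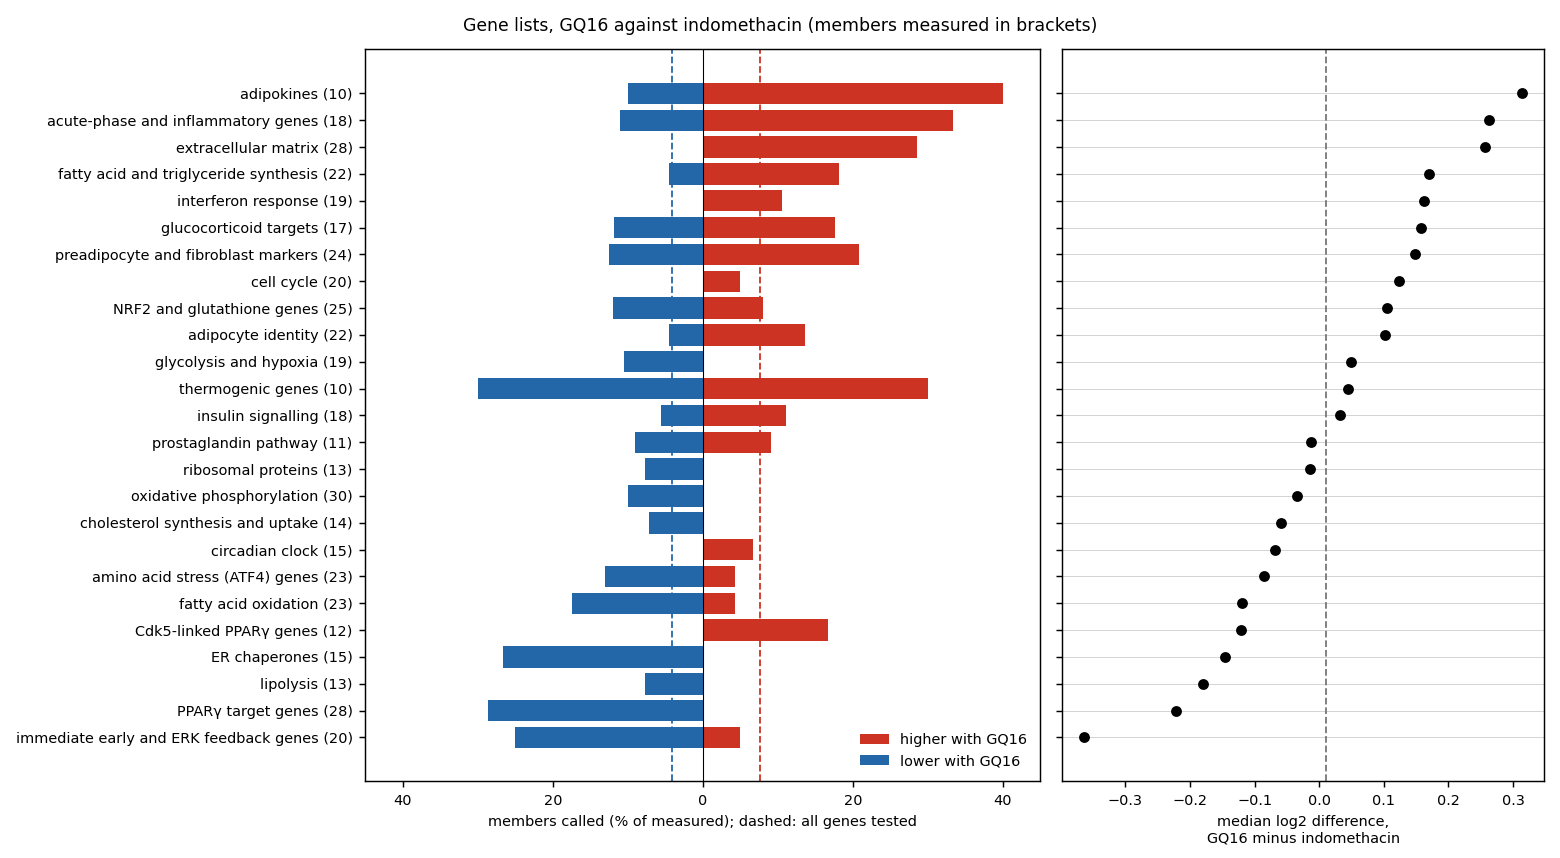
Left, the percentage of each list's measured members called higher (red, to the right) or lower (blue, to the left) with GQ16, with dashed lines at 7.61% and 4.09% for all genes tested; right, the median log2 difference of each list's measured members, with a dashed line at the median of all genes. Lists with at least 5 measured members are shown, and adipokines (0.31) and the immediate early list (-0.36) stand at the ends.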

How the data were processed

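Values were the authors' deposited log2 intensities of 18 Illumina mouse arrays. GenomeStudio and lumi are named per the submitters' processing notes, with versions and settings not given in the sources used here. Sorted values were nearly identical on all arrays (largest difference 0.00157, range 5.68 to 14.77, median 5.98), so distributions had been made equal, which hides a shift of most transcripts one way. Base 2 was inferred from the range. A non-normalized table with 36 columns of values could not be matched to samples and was not used, so no background correction or detection p-value filter was run.

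The platform annotation gave 1 symbol for 34885 of 45281 probes, several for 18 and none for 10378; 34807 matched RefSeq (GRCm38.p6) by Entrez identifier. Background was the 95th percentile (6.18) of the 1523 olfactory, vomeronasal and trace-amine receptor probes. Probes above it on at least 3 arrays were kept, and the brightest stood for each gene. Testing used limma 3.58.1 (R 4.3.3), in 1 fit over 18 arrays and 6 groups with an intensity trend (12 residual and 11.9 prior degrees of freedom) and two-sided tests. On simulated data of 10957 genes it recovered 47.0%, 93.0% and 100% of genes changed by 0.5, 1 and 2 (log2) between GQ16 and indomethacin, with 4.76% of calls false. The simulated noise was independent, with 1 spread per gene in all groups and no slide effect, and only 66, 71 and 63 genes changed. The 4.76% thus does not measure the false share among the calls reported here. The number of arrays limits the precision. A gene below background on all 3 arrays of a group has only a bound, computed against the background level.

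Named genes are the 15 largest rises and 15 largest falls among called genes whose arrays did not overlap, up to 4 called members of each of 28 lists (2 members where none was called) and 17 chosen genes; other called list members are named without values. The members, lists and chosen genes were picked with earlier results of these data known. Gene span and promoters came from RefSeq. Alternatives covered filters, scaling, probe averaging, the variance model, slide, replicate number and each array left out.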

Additional observations from a re-analysis of the deposited data

How the results depend on the processing

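Among the 91 called named genes the sign changed, over the other settings run, for Pparg only (-0.17 with the mean of its probes); 83 of them passed with slide blocked and 54 passed whichever of the 6 arrays was left out. The GQ16 against indomethacin count (1282) came to 48 with a plain pooled-variance test (31 higher, 17 lower), 481 within slide 3 (250 and 231) and 2237 without rosiglitazone replicate 1 and DMSO replicate 3 (1322 and 915); without a filter on low values 285 were lower. Leaving out 1 array gave 431 to 1371 in all, 291 to 858 higher and 140 to 513 lower. The count for GQ16 against DMSO (157) came to 96 without the filter, 3 with only those 2 groups' arrays, 37 with slide as a block, 87 with slide as a random block, 603 with array weights, 681 without that pair, and 0 with the plain test and within slide 2 (1294 and 1379 genes at an unadjusted p under 0.05). Slide 2 held 1 GQ16 and 1 DMSO array, with the spread taken from the other groups there, so that 0 says nothing about stability. Leaving out 1 array gave 11 to 256. The count for indomethacin against DMSO (1121) came to 1888 with only those groups' arrays, 4097 with array weights, 621 with the plain test, 1694 without that pair and 490 within slide 1, where 1 indomethacin array stood against 2 of DMSO, and leaving out 1 array gave 521 to 1121. The cause of these shifts was not tested. Same-numbered GQ16 and indomethacin arrays had deviations that correlated at 0.19, 0.157 and -0.0843. Whether same-numbered arrays share a culture or a day is not stated in the labels and was not tested. With replicate number as a block 1250 genes were called, 1204 of them among the 1282. List medians changed sign for insulin signalling, oxidative phosphorylation, glycolysis and hypoxia, amino acid stress and muscle markers (1 setting each), thermogenic genes (2), ribosomal proteins (3), endothelial markers (4) and the prostaglandin pathway (10).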
